A study of Homo sapiens with 6 samples.

Results

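The genes described here are 40 human genes of double-stranded RNA sensing and the interferon response. They were chosen by symbol and by no cut on a measured value, but with earlier results of these data known. They cover RNA sensors and their adaptor, the OAS family, the transcription factors of the pathway, the IFIT and IFITM families, the ISG15 system and other effectors. All 40 were found among the 59151 genes of the expression table. The question was whether cells that carry a hairpin RNA show an innate response to it. Of the 40 members, 29 (72.5%) stayed below 1 FPKM in all 6 libraries, against 41.1% of protein-coding genes. None of the 10 members with a mean of at least 1 FPKM, tested in the main fit, differed between groups at the threshold used. Of all genes tested there, 0% to 0.628% were called, depending on the comparison, so a list of this length would hold few calls. FPKM is the number of fragments on a gene scaled by its length and by the total of its library.

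Expression was measured at day 26 in forebrain neuron progenitor cells made from the human embryonic stem cell line H9. Total RNA was depleted of ribosomal RNA and sequenced, which keeps circular RNAs and transcripts without a poly(A) tail. The study made these libraries to ask what circRTN4(2,3), a circular RNA from the RTN4 gene, does in these cells. The shRNA2 and shRNA1 groups each carried a different short hairpin RNA that knocks down circRTN4(2,3), and the scramble group, whose genotype the labels give as wild type, carried a scrambled hairpin. Each group had 2 libraries, and no group without a hairpin was among the samples, so a response shared by all hairpin-carrying cells would not appear in any comparison. The labels number the replicates without saying whether each was a culture of its own, so the p-values reflect only how far the libraries of a group lay apart, and that spread may be technical.

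Double-stranded RNA in the cytoplasm is a sign of viral infection, and long or unprocessed hairpins can be bound by the same sensors. RIG-I and MDA5 signal through the adaptor MAVS to IRF3 and IRF7, which switch on interferon genes. Secreted interferon then acts through its receptor, the JAK kinases and a complex with STAT2 and IRF9 that binds the interferon-stimulated response element in the promoters of effector genes. Pluripotent stem cells are known for a weak interferon response, which strengthens as they differentiate.

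The promoters of 3 members are shown because they hold letter matches to the core of this response element. These genes are also described in detail further on. ISG15 had higher values with shRNA2 than with shRNA1, though it was not called. IFITM3 was the member with the highest mean level, and IFI44L a low member whose knockdown and scramble libraries did not overlap. Each is the stretch of 250 bases before the gene start, on the strand of the gene, from RefSeq (GRCh38.p14). The capitals mark the paired core of the response element, GAAA, any 2 bases and GAAA again.
ISG15, chr1:1013247-1013496, plus strand: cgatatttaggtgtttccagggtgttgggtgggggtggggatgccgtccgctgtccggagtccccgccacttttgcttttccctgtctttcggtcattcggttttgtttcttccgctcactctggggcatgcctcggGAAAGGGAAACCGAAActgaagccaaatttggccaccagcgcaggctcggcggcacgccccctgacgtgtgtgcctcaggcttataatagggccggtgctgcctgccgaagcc
IFITM3, chr11:320861-321110, minus strand: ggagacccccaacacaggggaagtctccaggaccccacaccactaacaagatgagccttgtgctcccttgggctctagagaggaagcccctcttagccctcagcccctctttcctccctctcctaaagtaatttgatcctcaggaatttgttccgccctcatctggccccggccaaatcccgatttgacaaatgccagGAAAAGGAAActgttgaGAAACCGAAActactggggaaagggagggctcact
IFI44L, chr1:78620198-78620447, plus strand: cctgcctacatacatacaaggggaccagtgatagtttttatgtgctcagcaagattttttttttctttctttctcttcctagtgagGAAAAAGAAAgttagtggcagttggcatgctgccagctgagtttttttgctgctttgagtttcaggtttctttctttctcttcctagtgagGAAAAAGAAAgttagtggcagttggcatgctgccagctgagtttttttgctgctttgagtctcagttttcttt

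The 2 matches of the ISG15 promoter overlap and begin 113 and 107 bases before the gene start. Those of IFITM3 begin 52 and 35 bases before it, and those of IFI44L 164 and 73 bases before it. A RefSeq promoter window, running from 250 bases before to 50 bases after the start, was at hand for 32 of the 40 members. The 10-base motif, searched as GAAA, 2 bases and GAAA and, for the other strand, as TTTC, 2 bases and TTTC, with overlapping matches kept, was in a window of 22 of these 32 members (68.8%), against 4.38% of all 27305 genes with a window. Of the 22 members with the motif, 17 (77.3%) stayed below 1 FPKM in every library, as did 6 of the 10 with a window and no match. The matches describe letters in the windows and are not shown to be bound sites.

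Levels of the members were low against the rest of the genome. The 29 members below 1 FPKM in all 6 libraries made up 72.5% of the list, while 41.1% of 18380 protein-coding genes in the table met the same condition. The median member had a mean of 0.234 FPKM over the 6 libraries, against 1.41 FPKM for the median protein-coding gene. By their mean, 7 members lay under 0.01 FPKM, 7 between 0.01 and 0.1, 16 between 0.1 and 1, 8 between 1 and 5, and 2, EIF2AK2 and IFITM3, at 5 FPKM or more. The number below 1 FPKM was 30 of 40 in each library except scramble replicate 2, where it was 29. TRIM25, the ubiquitin ligase that acts on RIG-I, made that difference, with 1.11 FPKM there and 0.647 to 0.960 FPKM in the other 5 libraries. Just inside the limit of 1 FPKM lay TRIM25 by its mean of 0.878 FPKM, and just outside it lay DDX58 at 1.20 FPKM. A limit of 0.5 FPKM would have left 24 members below it in all libraries, and a limit of 5 FPKM 37.

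**Figure D1:**
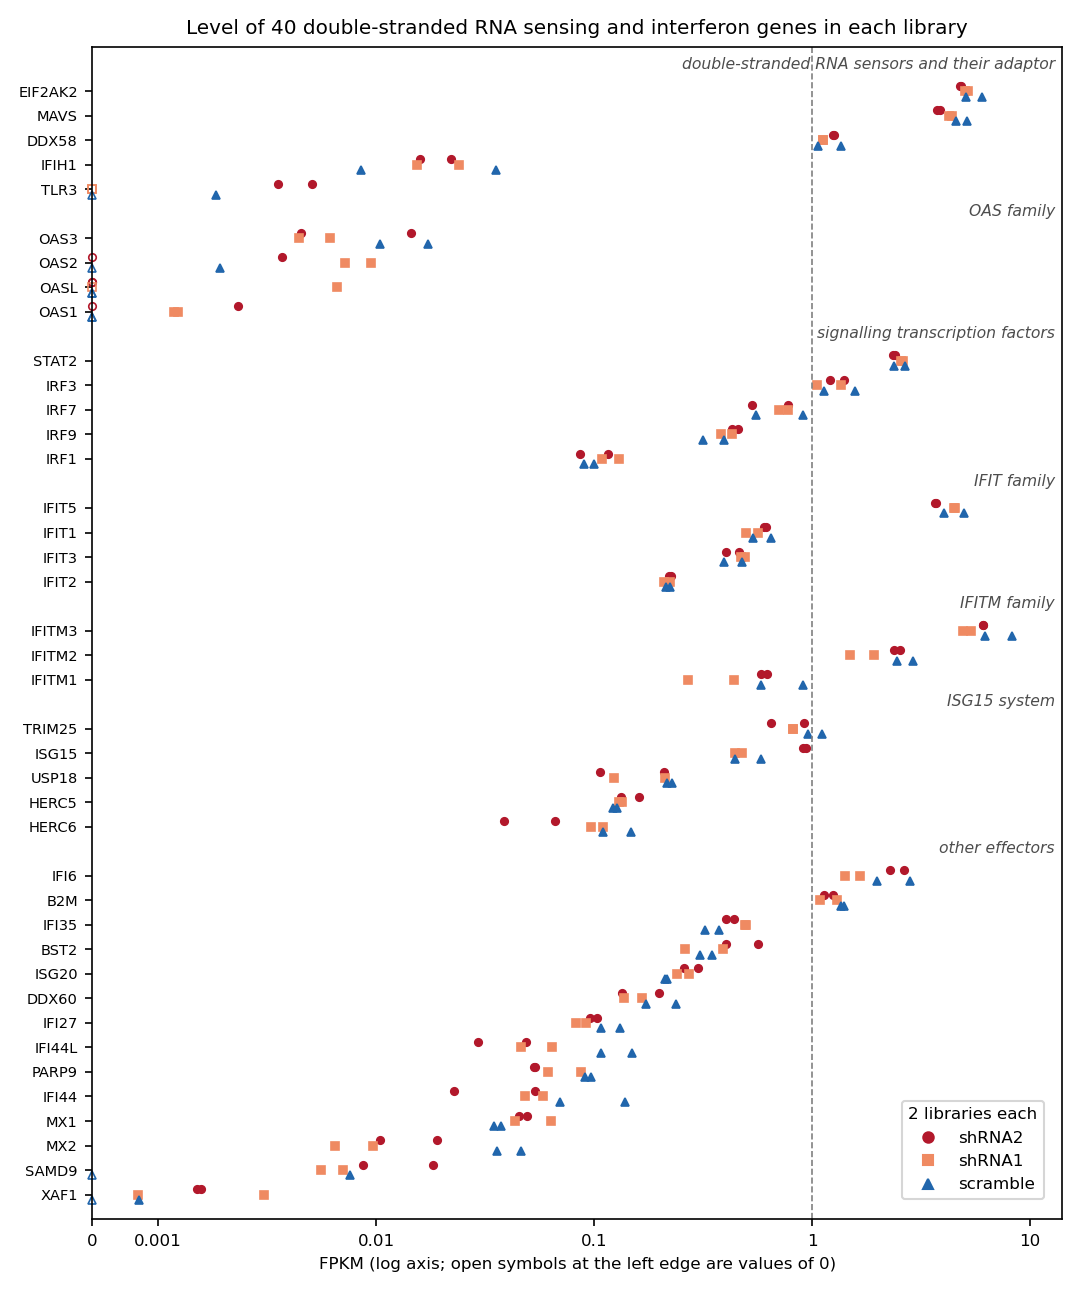
FPKM of each of the 40 members in each of the 6 libraries on a log axis, grouped by role, with circles for shRNA2, squares for shRNA1 and triangles for scramble (2 libraries each); the dashed line marks 1 FPKM and open symbols at the left edge are values of 0. The 3 groups lie close together for most members, and 29 members stay left of the dashed line in all libraries.

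**Figure D2:**
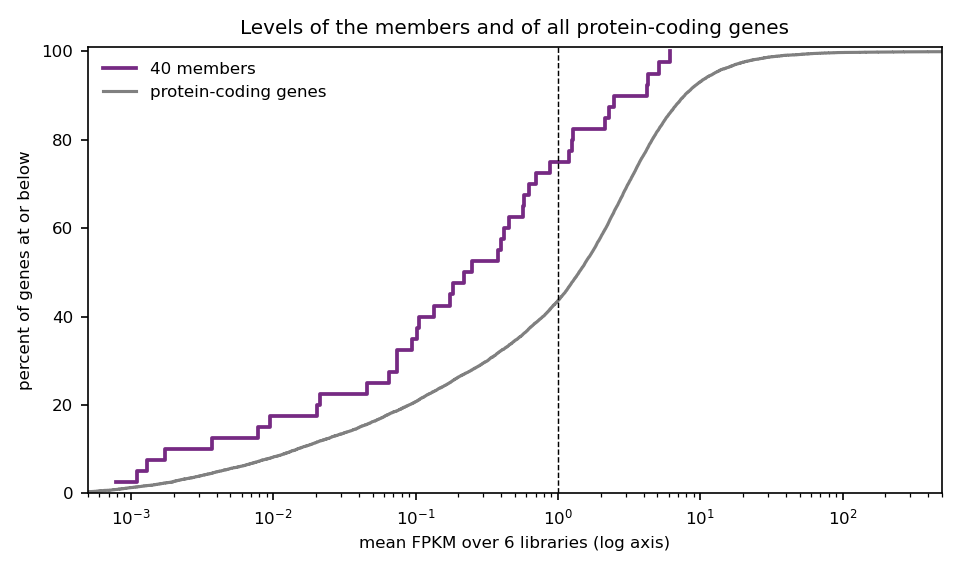
Percent of genes at or below each mean FPKM over the 6 libraries (log axis) for the 40 members and for 18380 protein-coding genes. The curve of the members lies above and left of the other, with medians of 0.234 and 1.41 FPKM; the dashed line marks 1 FPKM.

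The lowest of the members' values rest on few reads. By estimated lengths, IFIH1 had about 3.4 to 10.1 reads in a library, while TRIM25, also under a mean of 1 FPKM, had about 425 to 814. The library totals recovered from the FPKM values were 79949303 and 83629504 reads for shRNA2, 78488667 and 82353637 for shRNA1, and 46634855 and 77187298 for scramble. On a transcript of 1 kilobase, 3 reads gave 0.0359 FPKM in the deepest library, shRNA2 replicate 1, and 0.0643 FPKM in the shallowest, scramble replicate 1, where 6 members were listed at 0 against 1 or 2 in each other library. The scramble libraries also differed more from each other. Their median SD on the log2 scale was 0.14 over the tested members, against 0.02 for shRNA2 and 0.05 for shRNA1, and the fit pooled these spreads. Small RNAs took 39.9% to 41.5% of summed FPKM in the knockdown libraries, against 35.3% and 46.0% in the scramble pair.

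The cells carried the marks of neural progenitors and neurons in every group. SOX2, a transcription factor of neural progenitors, lay between 28.6 and 32.7 FPKM, and DCX, a microtubule protein of young neurons, between 94.9 and 120.2 FPKM. Of 8 markers of microglia and other macrophages, cells with strong interferon responses, 5 were in the table, and all 5 stayed below 1 FPKM with a summed level of 0.506 to 0.660 FPKM over all libraries. None of the 8 neural progenitor or 6 neuron markers was called by limma, and their fitted values leaned to both sides. In the knockdown PAX6, VIM and HES1 had log2 fold changes of -0.34, -0.33 and -0.27 (limma adjusted p 0.115, 0.132 and 0.183). Of the 8 progenitor markers, 5 had negative and 3 positive fitted values there. Their median was -0.04, against -0.03 over all genes tested. With shRNA2 against scramble DCX and GAP43 had -0.26 and -0.22 (limma adjusted p 0.132 and 0.130). All 6 neuron markers were negative in that comparison, while with shRNA1 against scramble 5 were positive and 1 negative.

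Markers of other cell types stood further apart. The 6 mesenchymal and meningeal markers, led by COL3A1, summed to 0.447 to 0.632 FPKM in shRNA2, 1.17 to 1.30 FPKM in shRNA1 and 5.65 to 6.41 FPKM in scramble, and DCN was the only one listed at 0 in a library, shRNA2 replicate 2. The 4 choroid plexus markers summed to 1.18 to 1.42 FPKM in shRNA2, 1.69 to 2.1 FPKM in shRNA1 and 7.56 to 8.22 FPKM in scramble, with none at 0. That difference lay almost wholly in TTR, which had 0.0577 and 0.0632 FPKM in shRNA2, 0.497 and 0.785 FPKM in shRNA1, and 6.03 and 6.63 FPKM in scramble, while KCNJ13 ranged from 0.980 to 1.27 FPKM over all libraries. The 5 endothelial markers summed to 0.367 to 0.420 FPKM in shRNA2, 0.341 to 0.370 FPKM in shRNA1 and 0.546 to 0.587 FPKM in scramble, and PECAM1 was listed at 0 in shRNA1 replicate 2. KDR, an endothelial receptor, had 0.0272 to 0.0591 FPKM in the knockdown libraries, against 0.153 and 0.160 FPKM in scramble. Of the 5 endothelial markers, only KDR and CLDN5 lay lower in every knockdown library than in both scramble libraries. TEK, the endothelial marker with the highest level, had 0.25 to 0.31 FPKM in the knockdown libraries, against 0.31 and 0.29 FPKM in scramble. PECAM1 and CDH5 overlapped between knockdown and scramble too. The 4 pluripotency markers summed to 11.6 to 11.7 FPKM in shRNA2, 5.94 to 6.04 FPKM in shRNA1 and 4.98 to 5.01 FPKM in scramble. LIN28A and DPPA4 carried that sum, while POU5F1 and NANOG stayed below 0.1 FPKM in all libraries. Limma called COL3A1 and TTR lower in the knockdown, at log2 fold changes of -1.77 and -2.48 (adjusted p 0.00761 each), and LIN28A and DPPA4 higher with shRNA2 against scramble, at 1.05 and 0.87 (adjusted p 0.0244 and 0.0353). The part of all these markers and cells in the levels of the members was not tested, and in bulk RNA fewer cells of a type cannot be told apart from less RNA per cell.

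The linear RTN4 gene had 31.2 and 31.3 FPKM in shRNA2, 34.2 and 34.7 FPKM in shRNA1, and 40.3 and 38.5 FPKM in scramble. These gene-level values mix linear and circular RNA, so they do not check the knockdown of the circle.

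Sensors of double-stranded RNA differed widely among themselves in level. EIF2AK2 (chr2:37099210-37156980, GRCh38.p14) encodes PKR, the kinase that binds double-stranded RNA and stops translation. It had 4.83 and 4.77 FPKM in shRNA2, 5.03 and 5.18 FPKM in shRNA1, and 6.01 and 5.10 FPKM in scramble. MAVS (chr20:3846834-3876118), the mitochondrial adaptor through which RIG-I and MDA5 signal, had 3.85 and 3.73 FPKM in shRNA2, 4.37 and 4.23 FPKM in shRNA1, and 4.58 and 5.16 FPKM in scramble. Both were lowest in the shRNA2 libraries, and the 3 groups did not overlap for MAVS. DDX58 (chr9:32455302-32526196), the gene of RIG-I, had 1.25 and 1.27 FPKM in shRNA2, 1.13 and 1.12 FPKM in shRNA1, and 1.36 and 1.06 FPKM in scramble, so that the scramble libraries lay on either side of all the others.

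The other sensors were close to undetected. IFIH1, the gene of MDA5, which binds long double-stranded RNA, had 0.0158 and 0.0221 FPKM in shRNA2, 0.0241 and 0.0155 FPKM in shRNA1, and 0.0355 and 0.00857 FPKM in scramble. TLR3, the endosomal receptor of double-stranded RNA, had 0.00510 and 0.00356 FPKM in shRNA2, 0 in both shRNA1 libraries, and 0 and 0.00184 FPKM in scramble. For TLR3 every library lay under the equivalent of 3 reads, at which no difference was detectable. The 4 members of the OAS family, OAS1, OAS2, OAS3 and OASL, whose enzymes make the oligoadenylates that activate the nuclease RNase L (OASL lacks that activity), ranged from 0 to 0.0173 FPKM over all libraries. OASL was above 0 in only 1 library, shRNA1 replicate 1, at 0.00662 FPKM.

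Among the transcription factors of the pathway, STAT2, a subunit of the complex that binds the response element, had 2.40 and 2.34 FPKM in shRNA2, 2.62 and 2.56 FPKM in shRNA1, and 2.37 and 2.66 FPKM in scramble. IRF3, which MAVS signalling activates and which is present in unstimulated cells, had 1.40 and 1.21 FPKM in shRNA2, 1.35 and 1.05 FPKM in shRNA1, and 1.14 and 1.57 FPKM in scramble. For both genes the scramble libraries spanned most of the range of the circRTN4 knockdown libraries. IRF7, which is itself induced by interferon and amplifies the response, ranged from 0.530 to 0.777 FPKM in shRNA2, 0.702 to 0.779 FPKM in shRNA1 and 0.553 to 0.907 FPKM in scramble. IRF9, the DNA-binding subunit beside STAT2, ranged from 0.317 to 0.457 FPKM over all libraries, and IRF1, a factor induced by interferon gamma, from 0.0865 to 0.131 FPKM. The exons of IRF9 overlap those of a neighbouring protein-coding gene on the same strand over 48.4% of their length, and those of IRF3 overlap BCL2L12 on the opposite strand over 19.3%, so reads there cannot be assigned with certainty.

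The IFIT proteins bind viral RNA ends and block their translation. IFIT5 stood apart from the other 3 in level, with 3.71 and 3.67 FPKM in shRNA2, 4.53 and 4.46 FPKM in shRNA1, and 4.96 and 4.04 FPKM in scramble. Its shRNA2 libraries lay below the other 4. IFIT1, IFIT2 and IFIT3, which lie beside IFIT5 on chromosome 10, ranged from 0.498 to 0.645 FPKM, 0.209 to 0.226 FPKM and 0.396 to 0.493 FPKM over all libraries. These 3 genes lie within the span of LIPA on the opposite strand, and the strand setting of the counting is not given in the sources used here.

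The IFITM proteins block the fusion of viruses with cell membranes. IFITM3 had 6.05 and 6.07 FPKM in shRNA2, 4.93 and 5.36 FPKM in shRNA1, and 6.24 and 8.30 FPKM in scramble, and its mean of 6.16 FPKM exceeded that of 86.1% of protein-coding genes. IFITM2 had 2.52 and 2.39 FPKM in shRNA2, 1.92 and 1.49 FPKM in shRNA1, and 2.46 and 2.90 FPKM in scramble. Both were lowest in the shRNA1 libraries. IFITM1 had 0.585 and 0.623 FPKM in shRNA2, 0.437 and 0.269 FPKM in shRNA1, and 0.586 and 0.906 FPKM in scramble, the same order as IFITM2. IFITM1 and IFITM2 share exon sequence on the same strand over 32.5% of the length of IFITM1, and the family members resemble each other, so their reads cannot be fully separated.

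In the ISG15 system, ISG15 is a ubiquitin-like protein, HERC5 the ligase that attaches it and USP18 the protease that removes it. ISG15 had 0.910 and 0.938 FPKM in shRNA2, 0.475 and 0.444 FPKM in shRNA1, and 0.444 and 0.580 FPKM in scramble. The shRNA2 libraries lay above the other 4, by a ratio of means of 2.01 over shRNA1 and 1.81 over scramble. USP18 ranged from 0.107 to 0.210 FPKM in shRNA2, 0.123 to 0.212 FPKM in shRNA1 and 0.215 to 0.227 FPKM in scramble. HERC5 had 0.132 and 0.161 FPKM in shRNA2, 0.130 and 0.135 FPKM in shRNA1, and 0.122 and 0.127 FPKM in scramble. HERC6, a related gene, had 0.0661 and 0.0388 FPKM in shRNA2, 0.0967 and 0.110 FPKM in shRNA1, and 0.147 and 0.110 FPKM in scramble. By group mean, ISG15 and its ligase were highest in shRNA2, and USP18 and HERC6 were highest in scramble.

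Of the other 14 effectors, only IFI6 and B2M exceeded 1 FPKM. IFI6, a membrane protein that restricts flaviviruses, had 2.64 and 2.28 FPKM in shRNA2, 1.42 and 1.66 FPKM in shRNA1, and 1.98 and 2.81 FPKM in scramble. B2M, the light chain of class I antigen-presenting molecules, had 1.24 and 1.13 FPKM in shRNA2, 1.08 and 1.30 FPKM in shRNA1, and 1.40 and 1.36 FPKM in scramble. IFI6 was lowest in shRNA1, and B2M was lower in all 4 knockdown libraries than in scramble. The dynamin-like antiviral GTPases MX1 and MX2 ranged from 0.0346 to 0.0635 FPKM and from 0.00645 to 0.0462 FPKM. BST2, which tethers budding virus to the cell surface, ranged from 0.262 to 0.566 FPKM and was highest in shRNA2 replicate 1. ISG20, an exonuclease of RNA, ranged from 0.211 to 0.30 FPKM, IFI35 from 0.323 to 0.499 FPKM, DDX60, a helicase, from 0.134 to 0.238 FPKM, IFI27 from 0.0830 to 0.131 FPKM and PARP9 from 0.0528 to 0.0973 FPKM. XAF1 and SAMD9 did not exceed 0.0182 FPKM.

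The 10 members with a mean of at least 1 FPKM, which were above 1 FPKM in every library, entered the fit with all 18162 genes at that level. The fit used log2(FPKM + 1), a scale that understates the change of low genes. Between circRTN4 knockdown, the mean of both hairpins, and scramble, limma with Benjamini-Hochberg adjustment called none of the 10, and 3 had an unadjusted p under 0.05, as did 13.8% of all tested genes. Over all tested genes 0.0826% were called, so a list of this length would hold few calls at that rate. All 10 fitted values were negative, with a median log2 fold change of -0.13, against -0.03 over all genes tested. All 10 rest on the same 2 scramble libraries, and the share of all tested genes with negative values is not given here.

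**Figure D3:**
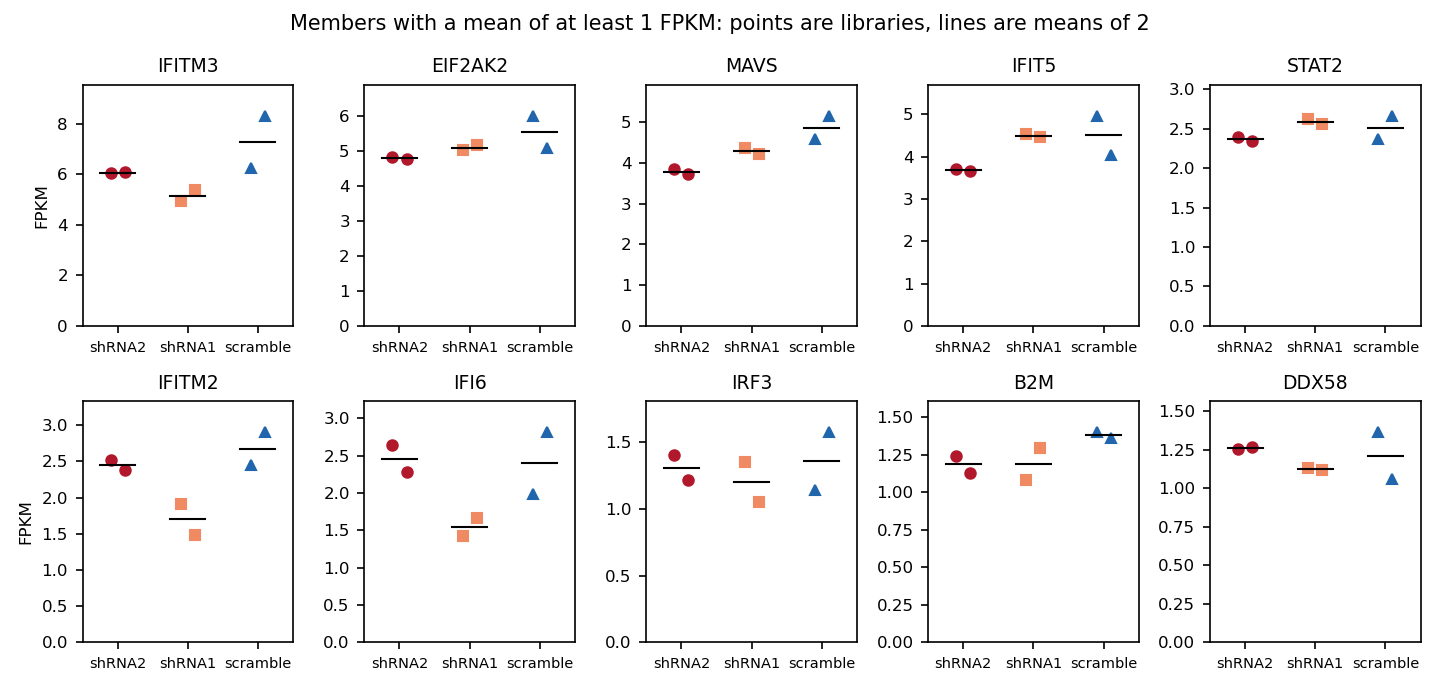
FPKM of the 10 members with a mean of at least 1 FPKM, in shRNA2, shRNA1 and scramble from left to right; points are libraries and lines the means of 2, and each axis starts at 0. MAVS, IFITM3 and B2M lie lower in all 4 knockdown libraries than in scramble, and the scramble points are mostly the farthest apart. The share of all tested genes that separate in this way is not given here.

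The 3 members with an unadjusted p under 0.05 were MAVS, IFITM2 and IFITM3. MAVS averaged 3.79 ± 0.0873 FPKM in shRNA2, 4.30 ± 0.103 FPKM in shRNA1 and 4.87 ± 0.408 FPKM in scramble (SD, n = 2 each). Its log2 fold change in the knockdown was -0.22 (SE 0.0583, limma adjusted p 0.233), lower in 4 of 4 knockdown libraries. IFITM3 averaged 6.06 ± 0.0187 FPKM in shRNA2, 5.14 ± 0.306 FPKM in shRNA1 and 7.27 ± 1.46 FPKM in scramble (SD, n = 2 each), and its log2 fold change was -0.32 (SE 0.109, limma adjusted p 0.311). Without scramble replicate 1 its adjusted p was 0.0471. IFITM2 had a log2 fold change of -0.27 (SE 0.0909, limma adjusted p 0.310). These differences did not pass the threshold over all genes, and the summed mesenchymal, choroid plexus and endothelial markers given above were also lower in the knockdown libraries. The part of those markers was not tested.

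For the other roles the fitted differences were smaller than for IFITM3. EIF2AK2 had a log2 fold change of -0.14 (SE 0.0682, limma adjusted p 0.461), IFI6 one of -0.19 (SE 0.119, limma adjusted p 0.562) and B2M one of -0.12 (SE 0.0667, limma adjusted p 0.505). IFIT5 came to -0.11 (SE 0.0775, limma adjusted p 0.600), IRF3 to -0.06 (SE 0.107, limma adjusted p 0.861) and STAT2 to -0.01 (SE 0.0561, limma adjusted p 0.941). In simulated data of this size, genes drawn from all levels were changed on the log2(FPKM + 1) scale, 100 by 1 and 100 by 0.5. The fit of the knockdown against scramble called 95% and 56% of them in that order. On that scale a doubling of a gene at a few FPKM is less than 1, so the 95% does not apply to doublings of such members. The number of changed genes also affects the adjustment, and 15 genes were called in the data. The simulation gave a gene the same spread in all groups, unlike the data, and held no change smaller than 0.5. The values given here are all smaller, so changes of their size would be missed more often than that.

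Each hairpin was also set against scramble, and the comparisons share the scramble libraries. With shRNA2, limma with Benjamini-Hochberg adjustment called 0 of 10 members, and 0.628% of all tested genes were called. At an unadjusted p under 0.05 there was 1 of the 10, against 19.2% of all tested genes. The median member log2 fold change was -0.10, against -0.06 over all genes. MAVS had the smallest p there, with a log2 fold change of -0.29 (SE 0.0673, limma adjusted p 0.133), and without scramble replicate 1 its adjusted p was 0.0308. IFITM3 had an adjusted p of 0.0348 without that library, and IFIT5 one of 0.0485 without scramble replicate 2. With shRNA1, limma also called 0 of 10, and 0.033% of all tested genes were called. At an unadjusted p under 0.05 there were 3 of the 10, against 8.97% of all tested genes. The median member log2 fold change was -0.11 against 0.00 over all genes. The 3 were IFITM2 at -0.45 (SE 0.105, limma adjusted p 0.372), IFITM3 at -0.42 (SE 0.126, limma adjusted p 0.448) and IFI6 at -0.41 (SE 0.138, limma adjusted p 0.488).

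**Figure D4:**
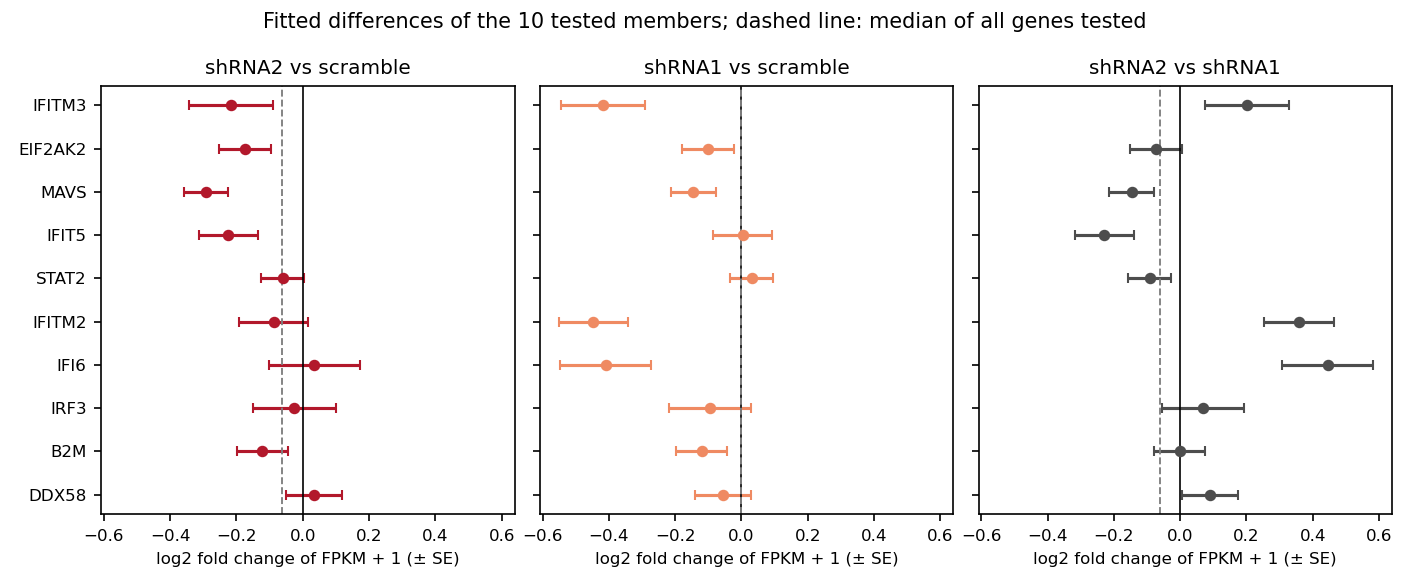
Log2 fold change of FPKM + 1 with its SE for the 10 tested members in shRNA2 against scramble, shRNA1 against scramble and shRNA2 against shRNA1; the solid line marks 0 and the dashed line the median of all tested genes. IFITM2, IFITM3 and IFI6 lie farthest from 0 with shRNA1 and MAVS with shRNA2, and none passed the threshold.

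Between the hairpins, shRNA2 against shRNA1, limma with Benjamini-Hochberg adjustment called 0 of 10 members, and over all tested genes 0% were called. At an unadjusted p under 0.05 there were 3 of the 10, against 16.1% of all tested genes. The members split evenly, 5 higher and 5 lower in shRNA2 by fitted value, with a median log2 fold change of 0.03 against -0.06 over all genes. IFI6 differed by 0.44 (SE 0.138, limma adjusted p 0.246), IFITM2 by 0.36 (SE 0.105, limma adjusted p 0.234) and IFIT5 by -0.23 (SE 0.0895, limma adjusted p 0.310). For IFIT5 the adjusted p was 0.0481 without scramble replicate 1 and 0.0473 without scramble replicate 2, as these libraries share in the estimate of the spread. The fitted values against scramble for IFI6 were 0.04 with shRNA2 and -0.41 with shRNA1, and for IFIT5 they were -0.22 with shRNA2 and 0.00 with shRNA1.

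The 30 members under the limit were described by their libraries. Over all 40 members, 10 lay lower in all 4 knockdown libraries than in both scramble libraries, 25% of the list, against 8.7% of the 59151 genes. The 10 were MAVS, IFITM3, B2M, TRIM25, USP18, MX2, IFI27, IFI44, IFI44L and PARP9. In the other direction 4 members lay higher, 10% of the list against 6.5% of all genes, namely HERC5, MX1, ISG20 and IFI35. The shares over all genes are not matched to the levels of the members. IFI44L, whose function is little known, had 0.0292 and 0.0489 FPKM in shRNA2, 0.0640 and 0.0460 FPKM in shRNA1, and 0.150 and 0.108 FPKM in scramble, a ratio of means to scramble of 0.303 with shRNA2 and 0.428 with shRNA1. Its estimated reads were 25 and 40 in shRNA2, 54 and 37 in shRNA1, and 71.5 and 85 in scramble. Its neighbour IFI44 had 0.0227 and 0.0534 FPKM in shRNA2, 0.0480 and 0.0585 FPKM in shRNA1, and 0.139 and 0.0697 FPKM in scramble. MX2 had 0.0191 and 0.0104 FPKM in shRNA2, 0.00645 and 0.00967 FPKM in shRNA1, and 0.0358 and 0.0462 FPKM in scramble. All 3 genes lay below 0.1 FPKM in every knockdown library. The summed mesenchymal, choroid plexus and endothelial markers were lower in the knockdown libraries too, and their part in these differences was not tested.

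**Figure D5:**
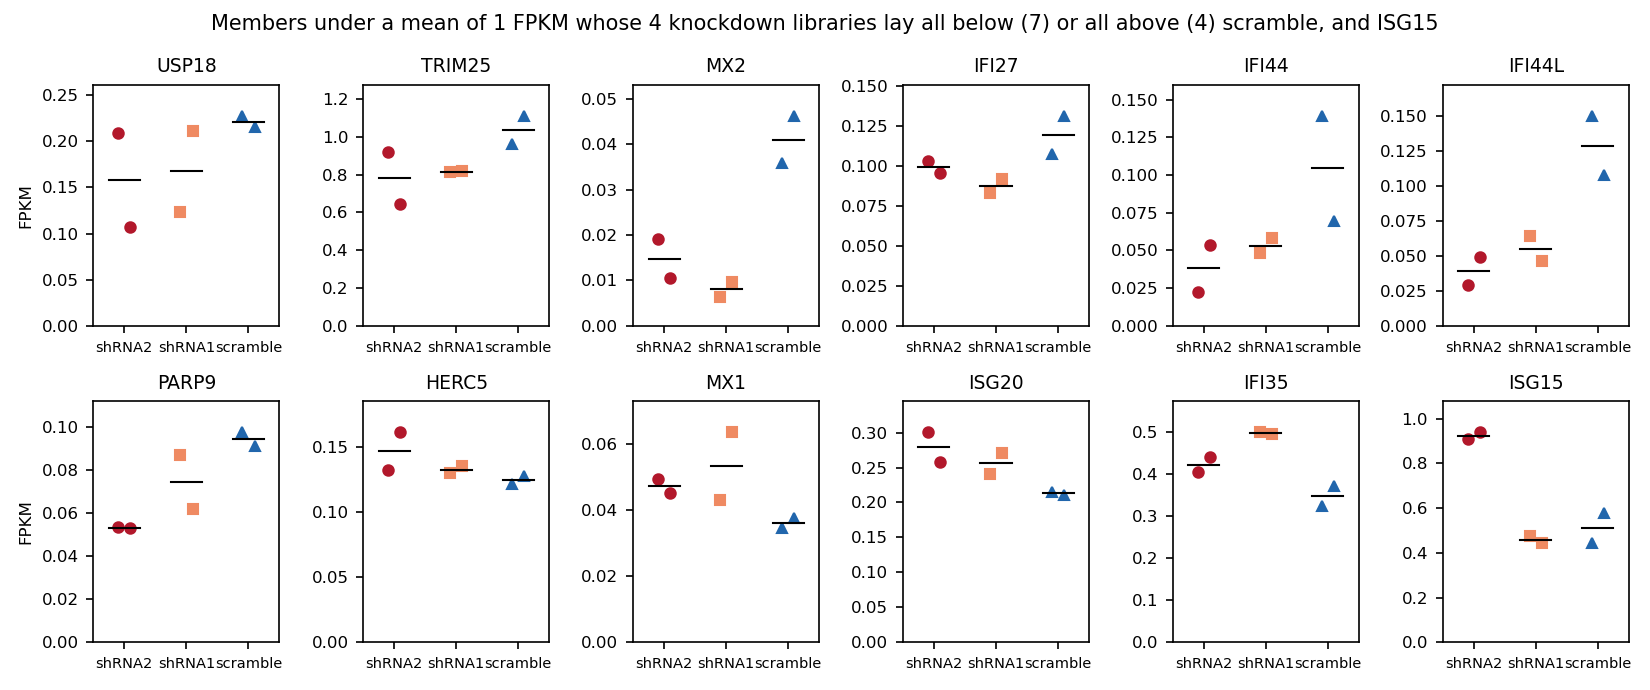
FPKM of 12 members with a mean under 1 FPKM, in shRNA2, shRNA1 and scramble from left to right; points are libraries, lines the means of 2, and each panel has its own axis from 0. The first 7 panels show members lower in all 4 knockdown libraries, the next 4 members higher in all 4, and the last ISG15, which is highest in the shRNA2 libraries.

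With each hairpin alone against scramble, 13 members lay lower and 10 higher in both shRNA2 libraries, 32.5% and 25% of the list, where 21.1% and 15.8% of all genes did. For shRNA1, 15 lay lower and 7 higher, 37.5% and 17.5% of the list, where 15.3% and 15.9% of all genes did. Between shRNA2 and shRNA1, 12 members lay higher and 9 lower in shRNA2, 30% and 22.5% of the list, where 16.3% and 26.9% of all genes did. The members counted as higher include TLR3 and XAF1 with shRNA2, OAS1 with shRNA1, and TLR3 between the hairpins. Each of these genes lay under the equivalent of 3 reads in every library, where no difference was detectable. Groups of 2 separate often, as the shares over all genes show. Those shares cover genes of every level and are not matched to the levels of the members.

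The low members were also fitted, with a limit of a mean of 0.1 FPKM and a pseudocount of 0.1 FPKM, which let 26 members in among 37004 genes. Limma with Benjamini-Hochberg adjustment called 0 of the 26 in each of the 4 comparisons. At an unadjusted p under 0.05 there were 2 members with shRNA2 against scramble, 5 with shRNA1 against scramble, 4 between the hairpins and 3 in the knockdown as a whole. The shares of all genes called were 0.122%, 0.0054%, 0% and 0.0622% in that order. The shares of all genes in this fit with an unadjusted p under 0.05 are not given here. ISG15 had the smallest adjusted p of the 26 with shRNA2 against scramble, where its log2 fold change was 0.75 (SE 0.158, limma adjusted p 0.171). Against shRNA1 it was 0.87 (SE 0.158, limma adjusted p 0.223). Its 0.910 and 0.938 FPKM in shRNA2 came from about 71.6 and 70.6 reads, against 36.8 and 32.8 reads in shRNA1 and 19.5 and 42.1 reads in scramble, on a length that is an estimate. With no limit on level and a pseudocount of 1 FPKM, all 40 members entered and 0 were called in each comparison, as were 0% of all 59151 genes.

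None of the genes in 7 further pathway lists was called in the knockdown by limma with Benjamini-Hochberg adjustment. Of 22 interferon ligand genes, 13 were in the table, and 12 of these stayed below 1 FPKM in all libraries. IFNB1, the interferon beta that cells make first after RNA sensing, had 0.209 and 0.146 FPKM in shRNA2, 0.212 and 0.148 FPKM in shRNA1, and 0.150 and 0.0754 FPKM in scramble, from 15 and 10 reads, 15 and 10 reads, and 6 and 5 reads in that order. The groups overlapped, with scramble replicate 1, the shallowest library, above replicate 2 of shRNA2 and of shRNA1. IFNK, the interferon kappa, had 1.22 and 1.23 FPKM in shRNA2, 1.05 and 0.849 FPKM in shRNA1, and 1.30 and 1.23 FPKM in scramble. IFNK lies within MOB3B on the opposite strand, which had 4.85 to 5.78 FPKM, and reads of the pair cannot be told apart without the strand. IFNB1 stayed under the limit of 1 FPKM, so the main fit did not test it. Its results in the fits with a lower limit or none are not reported here.

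The receptor and JAK-STAT genes were present in these cells. Of 15 listed, 12 were tested and 0 called in the knockdown, shRNA1 or shRNA2 comparisons with scramble by limma with Benjamini-Hochberg adjustment. Unadjusted p was under 0.05 for 2, 0 and 3 of the 12 in that order, against 13.8%, 8.97% and 19.2% of all tested genes. IFNAR1, a chain of the type I interferon receptor, ranged from 4.14 to 5.04 FPKM over all libraries. JAK1, the kinase on that receptor, had the smallest p of the list in the knockdown, with a log2 fold change of -0.19 (SE 0.0520, limma adjusted p 0.239). STAT3 came to -0.16 (SE 0.0568, limma adjusted p 0.325).

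Of 27 further sensing and signalling genes, 13 were tested and 0 called in the knockdown by limma. None of the 13 had an unadjusted p under 0.05, against 13.8% of all tested genes. ADAR, the enzyme that edits double-stranded RNA and so keeps it from the sensors, had 18.7 and 18.6 FPKM in shRNA2, 20.8 and 20.3 FPKM in shRNA1, and 19.5 and 21.9 FPKM in scramble. The genes of this list with the smallest p were the RNA helicase DHX9, at -0.11 (SE 0.0439, limma adjusted p 0.377), NFKB1, at -0.14 (SE 0.0584, limma adjusted p 0.399), and DHX15, at -0.10 (SE 0.0510, limma adjusted p 0.475). DHX58, a regulator of RIG-I and MDA5 that interferon induces, stayed between 0.00337 and 0.0279 FPKM.

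Of 62 other interferon-stimulated genes, 61 were in the table, 48 stayed below 1 FPKM in all libraries, and 0 of 10 tested were called in the knockdown by limma. None of the 10 had an unadjusted p under 0.05, against 13.8% of all tested genes. RSAD2, the antiviral enzyme viperin, had 0.144 and 0.156 FPKM in shRNA2, 0.170 and 0.184 FPKM in shRNA1, and 0.191 and 0.226 FPKM in scramble. CXCL10, a chemokine named for its induction by interferon, was listed at 0 in 5 libraries and at 0.0107 FPKM in scramble replicate 2. UBE2L6, the conjugating enzyme for ISG15, had a log2 fold change of -0.18 (SE 0.0849, limma adjusted p 0.444), and SHISA5 one of -0.17 (SE 0.0803, limma adjusted p 0.437).

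Of 21 antigen presentation genes, 8 were tested and 0 called in the knockdown by limma, with 3 at an unadjusted p under 0.05, where 13.8% of all tested genes lay. The 3 were the peptide-loading factors PDIA3, at -0.24 (SE 0.0398, limma adjusted p 0.131), and CALR, at -0.21 (SE 0.0559, limma adjusted p 0.233), and the proteasome activator PSME1, at -0.23 (SE 0.0845, limma adjusted p 0.335). Of 15 inflammatory targets of NF-kB, 13 were in the table, 11 stayed below 1 FPKM and 0 of 2 tested were called, with NFKBIA at -0.18 (SE 0.0644, limma adjusted p 0.324).

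The 16 genes of hairpin and small RNA processing, which include those that cut and load an expressed hairpin, were all tested. Limma called 0 of them in the knockdown. At an unadjusted p under 0.05 there were 3 of the 16, against 13.8% of all tested genes. AGO1, which carries the guide strand, had a log2 fold change of -0.26 (SE 0.0459, limma adjusted p 0.149). RAN, which drives nuclear export of hairpins, came to -0.20 (SE 0.0415, limma adjusted p 0.177). DROSHA, the nuclear nuclease that crops primary microRNAs, came to -0.15 (SE 0.0504, limma adjusted p 0.298). The median log2 fold change of these 16 genes was -0.04, against -0.03 over all genes tested.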

How the data were processed

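The deposited table held 1 FPKM value per gene symbol and library, made by the authors, per the file headers. The submitters' processing notes name featureCounts 2.0.1, HISAT2 2.1.0, Trimmomatic 0.39 and SAMtools 1.9, and the build GRCh38 (hg38). Neither the annotation nor the strand setting is given in the sources used here. Trizol extraction, RiboMinus depletion and KAPA RNA HyperPrep libraries are given per the labels' protocols. Gene positions and promoters are from RefSeq GRCh38.p14, and exon overlaps from GENCODE. In the table, 29 symbols had been turned into dates.

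Library totals were recovered from the steps of the low FPKM values and lay within 0.0005 reads of whole numbers. Read numbers use GENCODE exon lengths, which gave whole hundredths of a read for 11 members, 9 of them with reads in parts. No count test was therefore run. Reads without molecular identifiers are not independent molecules, so a floor of 3 reads covers counting error only.

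The tests used log2(FPKM + 1), a pseudocount of 1, with no further scaling, on genes whose mean over the 6 libraries reached 1 FPKM. limma 3.58.1 (R 4.3.3) with a mean-variance trend was fitted to all 3 groups at once. P-values were adjusted over all genes in the fit by the Benjamini-Hochberg method, with 0.05 as the limit for a call. The fit was tested on simulated data. Python 3.11.15 with pandas 2.3.3, numpy 2.4.6 and matplotlib 3.10.9 made the tables and figures. The 40 members, the 7 lists of 176 further pathway genes and the markers were chosen with earlier results of these data known. Values in every library were given for members with a mean of at least 1 FPKM and for sensors. Fitted statistics were given for the 2 tested members per role, and up to 3 tested genes per further list, with the smallest p in the knockdown; some of these are not reported here. ISG15, IFI44L, IFI44, MX2 and other low members given by library, the fitted values named in the other comparisons, and pathway and marker genes given only by level were chosen after their values were seen. Alternatives were another pseudocount, other limits on level, 2 scalings, protein-coding genes only, the replicate number as a block and each library left out.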

Additional observations from a re-analysis of the deposited data

How the results depend on the processing

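No member was called under another pseudocount, limit on level or scaling, with protein-coding genes only, or with the replicate number as a block, in any of the 4 comparisons. Leaving out 1 library gave 0 to 1 called members in the knockdown, 0 to 2 with shRNA2 against scramble, 0 with shRNA1 and 0 to 1 between the hairpins. All such calls came without a scramble library, which leaves the spread to the more uniform circRTN4 knockdown libraries. The lone scramble library is then assumed to vary like them. Without scramble replicate 1 they were IFITM3 in the knockdown and both MAVS and IFITM3 with shRNA2, and without scramble replicate 2 IFIT5 with shRNA2 (limma adjusted p 0.0485). IFIT5 was also called between the hairpins without either (limma adjusted p 0.0481 and 0.0473). The replicate block called 0 members in each comparison. Same-numbered libraries correlated at -0.15 to 0.01, so the numbers were not taken to pair them. With the scramble numbers crossed, an alternative chosen after seeing the data, 0 members were called with shRNA2.

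The median of the tested members moved to -0.23 in the knockdown, -0.19 with shRNA2 and -0.26 with shRNA1 at a limit of 5 FPKM, where 2 members are left. With no limit, where members near 0 enter, it was -0.0161, -0.00519 and -0.0194 in that order. Without each library in turn it ran from -0.15 to -0.12, from -0.14 to -0.05 and from -0.16 to -0.11 in the same order, and from -0.0145 to 0.06 between the hairpins. Some uncalled values changed sign, and the cause was not tested. Under median of ratios scaling these were STAT2 at 0.0168 in the knockdown and 0.000674 with shRNA2, IRF3 at 0.0249 with shRNA2, and B2M at 0.0446 between the hairpins, where quantile normalization gave 0.0183. Over the fits that leave out 1 library, in the knockdown STAT2 ran from -0.0747 to 0.0455, IRF3 from -0.19 to 0.0732 and IFIT5 from -0.23 to 0.0108. With shRNA2, IRF3 ran from -0.16 to 0.11 and IFI6 from -0.14 to 0.211. With shRNA1, IFIT5 ran from -0.12 to 0.125, IRF3 from -0.23 to 0.0385 and STAT2 from -0.0287 to 0.0915. Between the hairpins B2M ran from -0.0709 to 0.0687 and IRF3 from -0.0297 to 0.168. The count of members below 1 FPKM in all libraries was 29 under median of ratios scaling too. Depth limits the lowest members: those with a mean under 0.01 FPKM had at most 11 estimated reads in any library.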
